A study of Homo sapiens with 6 samples.

Results

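The genes described here encode the cadherins, catenins and desmosome proteins that hold epithelial cells to one another. They were chosen by name, and all 10 of 10 (CDH1, CDH2, CDH3, CDH11, CTNNB1, JUP, DSG2, DSC2, DSP and PKP2) were among the 16279 genes of the deposited tables. RNA-seq was performed on 12Z, an immortalised human endometriotic epithelial cell line, to ask which genes respond to chemerin, a secreted adipokine. Cells that received no treatment (Control, NC in the labels, n = 3) were set against cells given rhChem157S, the active form of recombinant human chemerin (rhChemerin in the labels, n = 3), at 10 ng/mL for 48 h. All 6 libraries came from this 1 line, and the labels call the 3 libraries of a group biological replicates without saying whether they were separate cultures, so that p-values measure the spread between these libraries, which may be technical.

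Classical cadherins are transmembrane proteins whose outer domains bind cadherins of the next cell in the presence of calcium. Inside the cell their tails bind β-catenin or plakoglobin, which link through α-catenin to actin and so form the adherens junction. In the desmosome, desmogleins and desmocollins take the place of classical cadherins, and plakoglobin, plakophilins and desmoplakin connect them to keratin filaments. E-cadherin is the usual classical cadherin of endometrial epithelium, whereas N-cadherin and cadherin-11 are typical of mesenchymal cells, and a shift from E-cadherin to N-cadherin is a widely used readout of the epithelial-mesenchymal transition.

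The libraries held 35430881 to 38341643 gene counts, which makes 1 count worth at most 0.0282 CPM (counts scaled to a common library total). Levels are given as FPKM, which are counts divided by gene length and by the library total and can therefore be compared between genes. Fold changes and p-values come from edgeR's quasi-likelihood test on the counts after TMM scaling, with Benjamini-Hochberg adjustment over all 13311 genes tested. TMM factors were 1.04 to 1.05 in Control and 0.898 to 1.00 in treated libraries, so that some genes separated the groups on one scale and not on the other. rhChem157S replicate 3 stood apart, with a chi-square per degree of freedom of 89.6 to 219 against each other library, where the remaining pairs had 13.1 to 77.9. rhChem157S replicate 1 had 32.6, 46.0 and 68.5 against Control replicates 1 to 3 and 38.3 against rhChem157S replicate 2. Pairs of Control libraries had 13.1 to 44.7. Of the epithelial markers KRT8 was at 819.6 ± 82.7, KRT18 at 607.7 ± 46.0 and KRT19 at 295.1 ± 15.9 FPKM in Control (SD, n = 3). MUC1 was at 12.7 ± 2.20, KRT7 at 1.66 ± 0.361 and EPCAM at 0.599 ± 0.210 FPKM in Control (SD, n = 3). The summed epithelial markers ran from 1596 to 1865 FPKM in Control and from 1760.1 to 1976 with rhChem157S. All 7 stromal markers exceeded 1 FPKM in each library, with COL1A1 at 1042 ± 84.9 FPKM in Control (SD, n = 3), and their sum ran from 1603 to 2069.9 and from 1131 to 2197 FPKM. The endothelial markers summed to at most 2.01 FPKM, with PECAM1 and TEK at or near 0, and the pan-leukocyte marker PTPRC was at most 0.0535 FPKM, although CD68 and CD14 brought the leukocyte list to 122 to 171 FPKM in Control and 92.7 to 136 with rhChem157S. The epithelial, stromal, endothelial and leukocyte lists held 6, 7, 3 and 2 tested genes. Of all genes tested 22.8% had an unadjusted edgeR p under 0.05, and DESeq2 called 10.6%. In the 4 marker lists edgeR called 0 genes, with 3 higher and 4 lower at an unadjusted p under 0.05. DESeq2 called PDGFRA higher and MUC1, VWF and CD14 lower. Their log2 fold changes were 0.79, -0.57, -1.97 and -1.49, beside -1.46 for EPCAM, -0.60 for PDGFRB, -0.10 for KDR and 0.11 for CD68. RNA of both epithelial and stromal markers was thus present, with CDH1 and EPCAM under 1 FPKM in all 6 libraries. The lists hold unlike genes, so their sums cannot be compared with each other to judge the identity of the cells. By immunoblot the paper detected E-cadherin and MUC1 protein in this line, which it read as epithelial identity. Cell identity was not tested here, nor was the part of the marker genes in the results.

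The promoter windows of the catenin pair CTNNB1 and JUP and of the desmosomal cadherin pair DSG2 and DSC2 are shown because the ratio within each pair separated the groups. Each window holds 250 bases before and 50 bases after an annotated start (RefSeq, GRCh38.p14) and is written 5′ to 3′ on the gene's strand. Capitals mark the E-box CACCTG, searched on both strands and therefore also as CAGGTG, the element bound by the SNAI and ZEB repressors of CDH1.
CTNNB1, chr3:41199255-41199554, plus strand: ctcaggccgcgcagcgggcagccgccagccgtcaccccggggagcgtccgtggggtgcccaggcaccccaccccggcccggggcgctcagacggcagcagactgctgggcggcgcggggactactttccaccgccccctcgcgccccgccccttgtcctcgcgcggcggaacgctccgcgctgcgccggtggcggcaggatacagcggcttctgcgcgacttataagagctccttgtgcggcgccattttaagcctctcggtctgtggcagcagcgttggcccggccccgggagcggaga
JUP, chr17:41785927-41786226, minus strand: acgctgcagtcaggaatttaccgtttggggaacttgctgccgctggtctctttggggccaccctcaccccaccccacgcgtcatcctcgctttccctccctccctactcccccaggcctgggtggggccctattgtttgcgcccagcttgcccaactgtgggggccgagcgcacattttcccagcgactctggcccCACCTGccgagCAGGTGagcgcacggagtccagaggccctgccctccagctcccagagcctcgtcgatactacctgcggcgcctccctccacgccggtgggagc
DSG2, chr18:31497927-31498226, plus strand: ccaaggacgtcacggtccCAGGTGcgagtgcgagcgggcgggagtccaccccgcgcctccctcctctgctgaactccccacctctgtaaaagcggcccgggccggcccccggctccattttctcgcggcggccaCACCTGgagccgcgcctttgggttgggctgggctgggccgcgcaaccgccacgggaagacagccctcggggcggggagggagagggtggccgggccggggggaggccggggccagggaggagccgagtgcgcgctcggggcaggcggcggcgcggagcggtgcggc
DSC2, chr18:31102372-31102671, minus strand: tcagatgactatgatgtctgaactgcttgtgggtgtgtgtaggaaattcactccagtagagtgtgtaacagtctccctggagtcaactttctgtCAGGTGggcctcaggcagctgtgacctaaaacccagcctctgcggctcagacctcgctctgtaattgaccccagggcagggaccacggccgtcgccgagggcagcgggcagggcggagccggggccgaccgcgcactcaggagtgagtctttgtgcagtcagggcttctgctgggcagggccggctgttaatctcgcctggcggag

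Windows were matched by symbol for 6 of the 10 genes, 9 windows in all, and CDH1, CDH3, CDH11 and PKP2 had no entry. The E-box letters were present in 4 of the 9 windows and in 20.6% of all 35116 windows of that length. Relative to the start, matches began at -54 and -43 in the JUP window shown, at -232 and -116 in DSG2, at -156 in DSC2, and at -178 and -85 in DSP, whose window is not printed. CTNNB1, both windows of CDH2 and the remaining windows of JUP and DSC2 held none. For JUP and DSC2 only the window with a match is printed. The unprinted JUP window (chr17:41786662-41786961) is the one that holds the 5′ end of the gene as positioned below. The 4 genes with a match comprise DSG2, whose fitted log2 fold change was above 0, and JUP, DSC2 and DSP, whose fitted values were below 0.

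In Control cells the mean levels of the 10 genes spanned 0.310 to 60.4 FPKM. The upper group was formed by CTNNB1 (60.4 ± 2.96 FPKM), JUP (55.9 ± 5.14), CDH2 (52.8 ± 0.975) and DSG2 (51.1 ± 3.58, SD, n = 3 for each), in which neighbours did not differ beyond their spread. PKP2 (19.7 ± 3.59), CDH11 (8.01 ± 1.96), CDH3 (3.92 ± 0.0982), DSC2 (2.16 ± 0.0732), DSP (0.882 ± 0.140) and CDH1 (0.310 ± 0.0719 FPKM, SD, n = 3 for each) followed in this order, and here the Control libraries of neighbouring genes did not overlap. 12Z cells thus held N-cadherin RNA among the most abundant of the 10 and E-cadherin RNA as the least abundant. CDH2 made up 78.4% to 82.8% of the summed FPKM of CDH1, CDH2, CDH3 and CDH11 in Control libraries, and CDH1 0.365% to 0.604%. This sum leaves out the other cadherins, among them CDH24 at 16.3, 17.9 and 16.7 FPKM in Control.

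**Figure D1:**
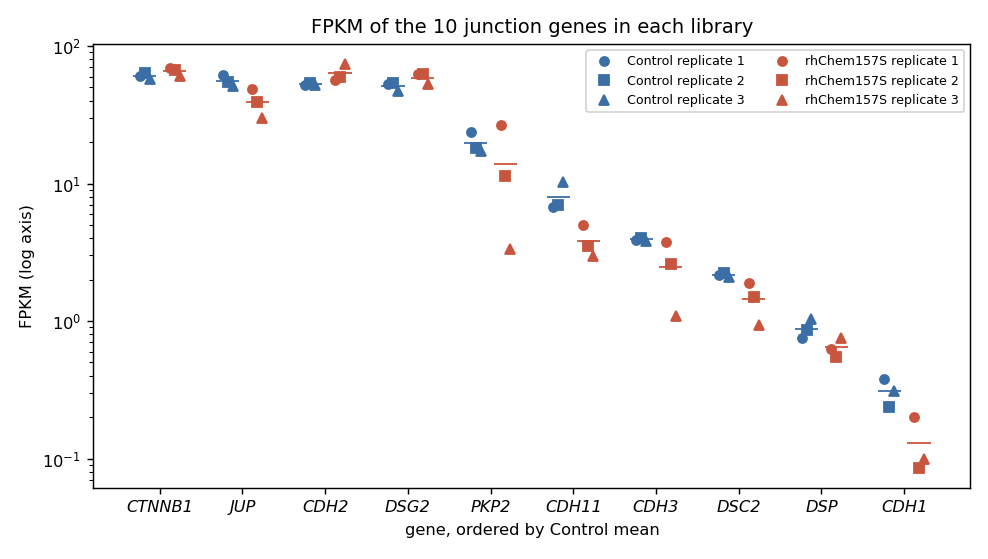
FPKM (log axis) of the 10 genes in each of the 6 libraries, with Control in blue, rhChem157S in red and the group means as short lines. CTNNB1, JUP, CDH2 and DSG2 lie together at the top in Control cells, and CDH1 lies lowest, at 0.0859 to 0.381 FPKM.

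With edgeR's quasi-likelihood test 0 of the 10 genes had an adjusted p under 0.05, where 0.0301% of all genes tested did (0.015% lower and 0.015% higher). Without adjustment 6 of the 10 had p under 0.05 in edgeR, 3 with higher values after rhChem157S (CDH2, CTNNB1 and DSG2) and 3 with lower values (CDH1, CDH11 and JUP), where 22.8% of all genes did, 11.4% in each direction. DESeq2, the tool of the study, called 3 of the 10 at an adjusted p under 0.05, CTNNB1 and DSG2 higher and CDH11 lower, against 10.6% of all genes (4.58% higher and 6% lower). The study's rule also required an absolute log2 fold change above 1, a cut not applied here. The DESeq2 log2 fold changes of CTNNB1, DSG2 and CDH11 were 0.24, 0.33 and -0.95, short of that cut. After TMM scaling the groups were apart in 6 of the 10, 3 higher and 3 lower, compared with 32.5% of all genes (16.5% higher and 16% lower). On the FPKM as deposited they were apart in 7, 6 lower and 1 higher, compared with 25.1% of all genes lower and 7.36% higher. CDH1, CDH11 and DSC2 (lower) and CDH2 (higher) were apart on both scales. The median log2 fold change was -0.40 over the 10 genes and 0.01 over all genes tested, and fewer cells of a type cannot be told apart from less RNA per cell in these bulk libraries.

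Among the classical cadherins, CDH1 (E-cadherin; chromosome 16, 68737225 to 68835548, plus strand; GENCODE release 29 on GRCh38, as for all gene positions here) had 65, 42 and 54 counts in Control replicates 1 to 3 and 37, 15 and 18 counts in rhChem157S replicates 1 to 3. These correspond to 0.381, 0.238 and 0.311 FPKM and 0.201, 0.0859 and 0.10 FPKM. No treated library reached the lowest Control library. The exact 95% Poisson intervals, which cover counting error only, were 30.3 to 56.8 counts for that Control library and 26.1 to 51.0 counts for the highest treated library, so that a difference between this pair was not detectable at this depth. The log2 fold change was -1.14 (95% interval -2.17 to -0.12, edgeR adjusted p = 0.188, DESeq2 adjusted p = 0.125).

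CDH2, which encodes N-cadherin (chromosome 18, 27950966 to 28177446, minus strand), was at 52.0, 53.9 and 52.4 FPKM in Control and at 56.7, 59.5 and 73.8 FPKM after rhChem157S. The Control values were close together and each treated value exceeded them, with replicate 3 the highest. The fitted log2 fold change was 0.40 (95% interval 0.07 to 0.73, edgeR adjusted p = 0.165), and 0.22 without rhChem157S replicate 3. CDH2 took 86.3%, 90.5% and 94.7% of the summed FPKM of CDH1, CDH2, CDH3 and CDH11 in the treated libraries, above its share in each Control library. CDH1 took 0.305%, 0.131% and 0.128% there. The sum itself was 63.1, 65.1 and 66.9 FPKM in Control and 65.7, 65.7 and 78.0 FPKM after rhChem157S.

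CDH11, a cadherin of mesenchymal and bone-forming cells (chromosome 16, 64943753 to 65126112, minus strand), had the smallest p of the 10 genes. It was at 6.80, 6.96 and 10.3 FPKM in Control and at 5.03, 3.54 and 2.96 FPKM after rhChem157S, so that the groups were apart, with Control replicate 3 the highest of the 6. The log2 fold change of -0.94 (SE 0.22, 95% interval -1.45 to -0.44) corresponds to 0.521 times the Control level. The adjusted p was 0.0954 with edgeR and 0.00184 with DESeq2, and 0.0340 with edgeR without rhChem157S replicate 1. CDH11 and CDH2, both typical of mesenchymal cells, thus had fitted values of opposite sign.

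CDH3 encodes P-cadherin, a cadherin of placenta and basal epithelia, and ends 14608 bases before CDH1 begins (chromosome 16, 68636189 to 68722616, plus strand). It was at 3.88, 4.03 and 3.85 FPKM in Control and at 3.78, 2.60 and 1.09 FPKM after rhChem157S. The treated replicate 1 was near the Control level and replicate 3 far below it. The fitted value was -0.55 (log2, 95% interval -1.37 to 0.28, edgeR adjusted p = 0.374), -0.22 without rhChem157S replicate 3 and -0.95 without rhChem157S replicate 1. The groups were apart as FPKM and overlapped after TMM scaling.

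Of the catenins, CTNNB1 (chromosome 3, 41194741 to 41260096, plus strand) encodes β-catenin, which both links the adherens junction and serves as the coactivator of TCF factors in Wnt signalling. It was at 60.5, 63.3 and 57.4 FPKM in Control and at 68.8, 67.4 and 60.2 FPKM after rhChem157S. The groups overlapped as FPKM and were apart after TMM scaling. The log2 fold change was 0.24 (95% interval 0.07 to 0.42, edgeR adjusted p = 0.140, DESeq2 adjusted p = 0.0379), and 0.12 when libraries were scaled by their totals alone, a scaling that set the median of all genes at -0.12. The DESeq2 call was lost in 5 of 6 fits with a library left out, with adjusted p of 0.0748 to 0.210, and was kept without rhChem157S replicate 3 (DESeq2 adjusted p = 0.00978).

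JUP (chromosome 17, 41754604 to 41786931, minus strand) encodes plakoglobin, the relative of β-catenin that serves in adherens junctions and desmosomes alike. It was at 61.3, 55.2 and 51.1 FPKM in Control and at 49.0, 39.1 and 30.0 FPKM after rhChem157S. The treated values all lay under the Control values as FPKM, and the groups overlapped after TMM scaling. The log2 fold change was -0.39 (95% interval -0.73 to -0.04, edgeR adjusted p = 0.189, DESeq2 adjusted p = 0.117).

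The desmosomal cadherins DSG2 (chromosome 18, 31498043 to 31549008, plus strand) and DSC2 (chromosome 18, 31058840 to 31102522, minus strand) encode the desmoglein and desmocollin found in most epithelia, from 1 gene cluster. DSG2 was at 52.5, 53.8 and 47.1 FPKM in Control and at 62.1, 62.3 and 52.7 FPKM after rhChem157S. The treated replicate 3 lay within the Control range on this scale, and the groups were apart after TMM scaling. For DSG2 the log2 fold change was 0.33 (95% interval 0.13 to 0.54, edgeR adjusted p = 0.110, DESeq2 adjusted p = 0.0153), and 0.21 with scaling by the totals alone. Its DESeq2 call was lost without Control replicate 1, 2 or 3 or without rhChem157S replicate 2, with adjusted p of 0.0560 to 0.129. DSC2 was at 2.15, 2.24 and 2.10 FPKM in Control and at 1.90, 1.50 and 0.933 FPKM after rhChem157S. The groups were apart on both scales, and the treated replicate 3 was the lowest. For DSC2 the log2 fold change was -0.47 (95% interval -0.95 to 0.02, edgeR adjusted p = 0.229), -0.27 without rhChem157S replicate 3 and -0.68 without rhChem157S replicate 1.

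In the desmosomal plaque, DSP (chromosome 6, 7541575 to 7586717, plus strand) encodes desmoplakin, which binds keratin filaments. It was at 0.750, 0.868 and 1.03 FPKM in Control and at 0.631, 0.551 and 0.748 FPKM after rhChem157S, from 158 to 293 counts per library. The highest treated value was just under the lowest Control value, and the groups overlapped after TMM scaling. The fitted log2 fold change of DSP was -0.32 (95% interval -0.84 to 0.20, edgeR adjusted p = 0.413), -0.19 without Control replicate 3 and -0.50 without rhChem157S replicate 3.

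PKP2 (chromosome 12, 32790745 to 32896840, minus strand) encodes plakophilin-2, the broadly expressed plakophilin of this plaque. It was at 23.8, 18.2 and 17.1 FPKM in Control and at 26.8, 11.3 and 3.36 FPKM after rhChem157S. The highest and the lowest of the 6 libraries were both treated ones, replicates 1 and 3. The fitted value was -0.42 (log2, 95% interval -1.79 to 0.95, edgeR adjusted p = 0.681), -1.30 without rhChem157S replicate 1 and 0.024 without rhChem157S replicate 3, so that 1 library decided its direction.

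**Figure D2:**
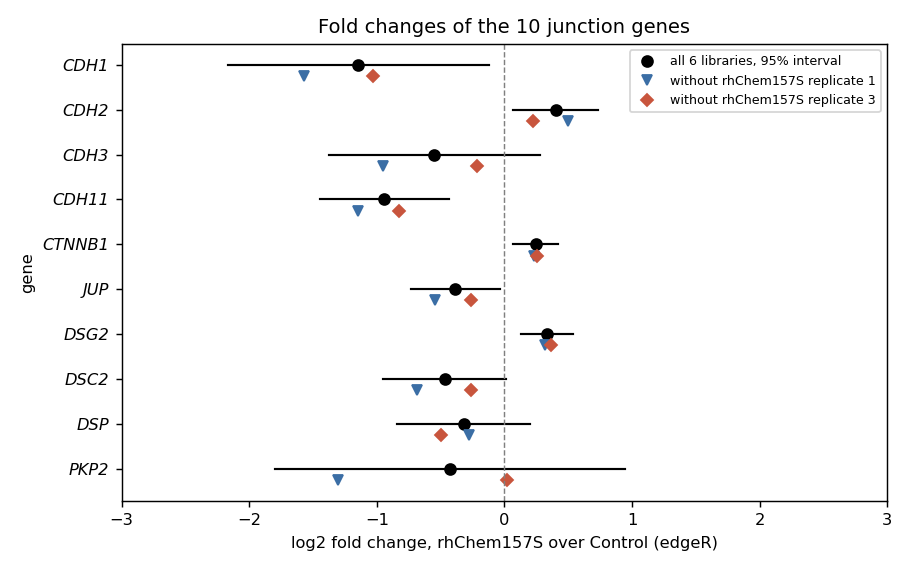
Log2 fold change of each gene (rhChem157S over Control, edgeR) with its 95% interval from all 6 libraries, beside the values without rhChem157S replicate 1 or replicate 3. The intervals of CDH2, CTNNB1 and DSG2 lie above 0 and those of CDH1, CDH11 and JUP below 0, while PKP2 ranges from -1.30 to 0.024 with the library left out.

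The treated libraries departed from Control to unequal degrees. As log2 CPM relative to the Control mean, the median over the 10 genes was -0.05 in rhChem157S replicate 1, -0.45 in replicate 2 and -0.83 in replicate 3, where the median over all tested genes was 0.00, 0.01 and 0.01. The widest spread among treated libraries was that of PKP2, with 0.52 in replicate 1 and -2.31 in replicate 3, and CDH3 followed with 0.01 and -1.62. CTNNB1 varied least, from 0.22 to 0.26. CDH2, CTNNB1 and DSG2 were above the Control mean in each of the 3 treated libraries, and CDH1, CDH11, JUP, DSC2 and DSP were below it in each.

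**Figure D3:**
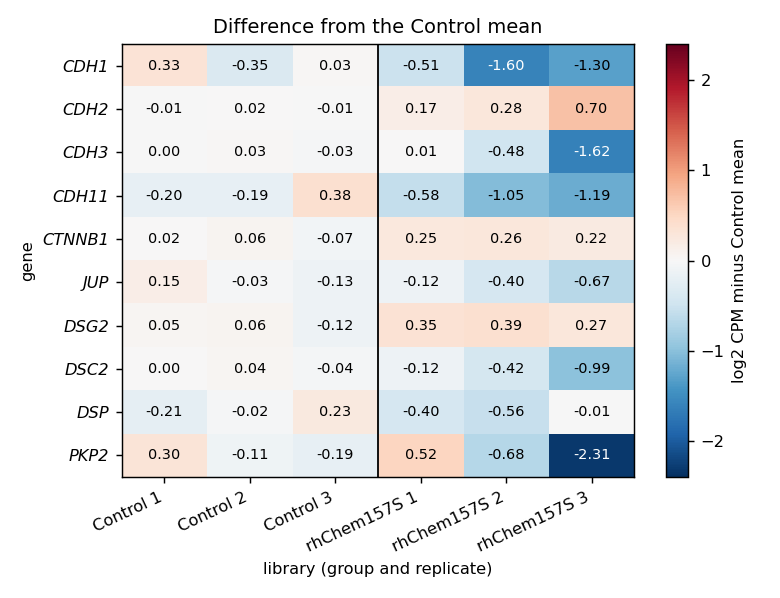
Log2 CPM of each gene in each library minus the gene's Control mean, after TMM scaling, with lower values in blue and higher values in red. The lowest value, -2.31, is that of PKP2 in rhChem157S replicate 3, and replicate 1 is close to Control for CDH3 (0.01).

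Profiles were compared after centring each gene's log2 CPM on its mean over the 6 libraries, by the mean absolute difference between genes. CTNNB1 and DSG2 were the most alike of the 10 (0.04 on the log2 scale), JUP and DSC2 came next (0.12), and CDH2 and PKP2 were the least alike (0.92). Over all tested genes, the 5 profiles nearest to that of CDH11 were those of IFNLR1 (0.05), FAM124A (0.06), LRRN1 (0.08), TGFB2 (0.08) and SAMD11 (0.10). TGFB2, which encodes a TGF-β ligand, was at 6.78, 7.89 and 10.7 FPKM in Control and at 4.67, 3.87 and 2.94 FPKM after rhChem157S. The groups were apart after TMM scaling in all 5, as they were in CDH11, to which these genes were matched, so no test is given.

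The balance between partners was measured as a ratio of FPKM within a library, which does not depend on how libraries are scaled. For CDH1 to CDH2 the log2 ratio was -7.09, -7.83 and -7.40 in Control and -8.14, -9.44 and -9.53 after rhChem157S. The treated ratios were all lower, with means of -7.44 ± 0.37 and -9.04 ± 0.77 (SD) and a difference of -1.60 (exact two-sided permutation test, n = 3 per group, p = 0.1). This ratio rests on few CDH1 counts, and with 1 FPKM added to both genes the difference was -0.46.

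For JUP to CTNNB1 the log2 ratio was 0.02, -0.20 and -0.17 in Control, near equal levels of both catenins, and -0.49, -0.78 and -1.01 after rhChem157S. The groups were apart, with means of -0.12 ± 0.12 and -0.76 ± 0.26 (SD) and a difference of -0.64 (exact two-sided permutation test, n = 3 per group, p = 0.1). On the linear scale this was 0.871 to 1.01 JUP per CTNNB1 in Control and 0.498 to 0.712 after rhChem157S. For DSG2 to DSC2 the log2 ratio was 4.61, 4.59 and 4.49 in Control and 5.03, 5.37 and 5.82 after rhChem157S. Here the treated ratios were all higher, with means of 4.56 ± 0.07 and 5.41 ± 0.40 (SD) and a difference of 0.85 (exact two-sided permutation test, n = 3 per group, p = 0.1). This ratio leaves out DSC3, the more abundant desmocollin, at 16.2 ± 3.41 FPKM in Control and 12.8 ± 2.64 FPKM after rhChem157S (SD, n = 3), with overlapping groups. The adjusted p over the 3 ratios was 0.1 for each exact test, the smallest that 3 libraries against 3 allow.

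**Figure D4:**
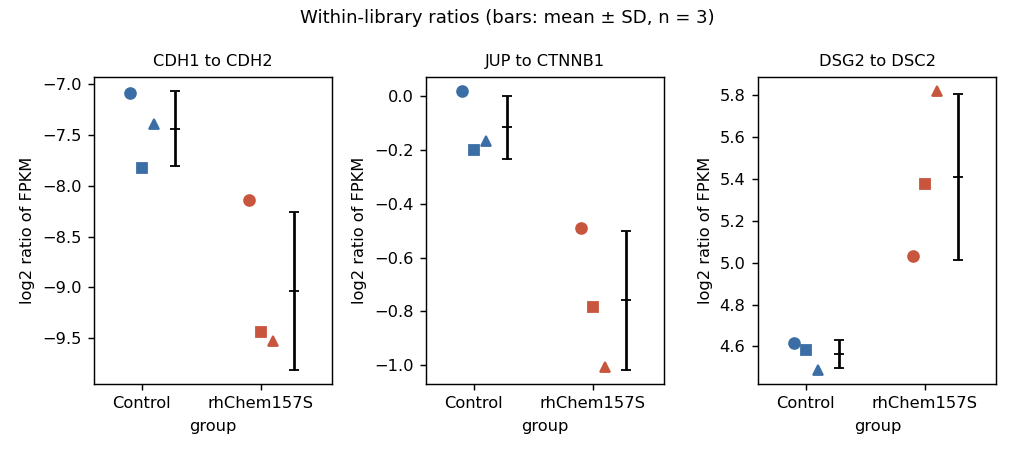
Log2 ratio of FPKM within each library for CDH1 to CDH2, JUP to CTNNB1 and DSG2 to DSC2, with Control in blue, rhChem157S in red and black bars for the mean ± SD (n = 3). The groups are apart in all 3 panels, with differences of -1.60, -0.64 and 0.85.

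Within the desmosome, DSG2 took 37.4% to 41.3% of the summed FPKM of DSG2, DSC2, DSP, PKP2 and JUP in Control and 44.3%, 54.3% and 60.1% in the treated libraries. JUP took 42.4% to 43.6% and 34.1% to 34.9%, a narrow range in either group. PKP2 took 14% to 16.9% in Control and 19.1%, 9.82% and 3.83% in the treated libraries. The sum was 141, 130.2 and 118 FPKM in Control and 140.4, 115 and 87.8 FPKM after rhChem157S, with overlapping groups. DSC3 and other desmosome genes are not part of this sum.

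Other genes of these junctions were taken from 7 lists, in which edgeR called 0 genes at an adjusted p under 0.05 and DESeq2 called 3, CTNNA1 and ZEB2 higher and NOTUM lower. These 3 are 6.12% of the 49 genes tested, below the 10.6% of all genes that DESeq2 called. Over all genes tested 22.8% had an unadjusted edgeR p under 0.05, 11.4% in each direction, beside which the counts of the lists are given. Of the 9 other cadherins tested, 1 had an unadjusted edgeR p under 0.05 (CDH24, lower), and the median log2 fold change was 0.05. CDH24, a classical-type cadherin, was at 16.3, 17.9 and 16.7 FPKM in Control and at 12.2, 11.6 and 13.5 FPKM after rhChem157S (log2 fold change -0.31, edgeR adjusted p = 0.165). CDH13 encodes T-cadherin, which is held in the membrane by a lipid anchor and has no catenin-binding tail, and had the highest mean of the list over both groups, at 18 ± 4.74 and 21.7 ± 4.27 FPKM (SD, n = 3), although in Control it did not differ from CDH24 (16.9 ± 0.801 FPKM, SD, n = 3) beyond the spread. CDH6, the kidney cadherin, was at 0.194 ± 0.104 and 0.350 ± 0.0542 FPKM (SD, n = 3).

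Among 10 adherens junction partners tested, 1 was higher and 1 lower at an unadjusted edgeR p under 0.05 (median log2 fold change -0.01). CTNNA1, the α-catenin that joins the complex to actin, had the highest mean of the list over both groups and was at 105, 102 and 94.2 FPKM in Control and at 116, 114 and 99.8 FPKM after rhChem157S (log2 fold change 0.26, edgeR adjusted p = 0.153, DESeq2 adjusted p = 0.0431). NECTIN2, an immunoglobulin-like receptor of the same junction, was at 85.5, 89.6 and 98.2 and 73.8, 72.9 and 60.7 FPKM (log2 fold change -0.27, edgeR adjusted p = 0.149). Of 6 other desmosome genes tested, 0 had an unadjusted p under 0.05 with edgeR and DESeq2 called 0 (median -0.10). DSC3 at 16.2 ± 3.41 and 12.8 ± 2.64 FPKM (SD, n = 3) exceeded DSC2 in all 6 libraries, and PERP, a desmosomal membrane protein, was at 11.4 ± 1.80 and 14 ± 3.00 FPKM (SD, n = 3).

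β-catenin is marked for degradation in a complex with APC, axin and GSK3. Of the 7 genes of this destruction complex, 3 were higher and 1 lower at an unadjusted edgeR p under 0.05 (median 0.07), with log2 fold changes of 0.31 for APC and 0.34 for GSK3A (edgeR adjusted p = 0.141 and 0.181). Of 7 TCF target genes tested, 1 was higher and 2 were lower at that threshold (median -0.02). Over all genes tested 22.8% were under it, 11.4% in each direction. NOTUM, a secreted enzyme that inactivates Wnt proteins, was at 2.93, 3.44 and 3.99 FPKM in Control and at 0.727, 0.645 and 0.842 FPKM after rhChem157S. The groups were far apart, with a log2 fold change of -2.09 (SE 0.24, edgeR adjusted p = 0.0574, DESeq2 adjusted p = 2.49e-12). The other lower target was AXIN2, named here after its values were seen, a scaffold of the destruction complex that is on both lists, at 0.604, 0.481 and 0.557 FPKM in Control and 0.344, 0.190 and 0.323 FPKM after rhChem157S (log2 fold change -0.80, edgeR adjusted p = 0.201). MYC, the growth regulator, was at 24.7, 20.7 and 25.6 and 24.4, 31.3 and 43.2 FPKM (log2 fold change 0.63, edgeR adjusted p = 0.178).

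The 5 genes of cadherin processing had fitted log2 fold changes of 0.10 to 0.21, with 1 at an unadjusted edgeR p under 0.05. This was FURIN, the protease that cleaves cadherin precursors, at 32.5 ± 0.731 and 34.3 ± 2.51 FPKM (SD, n = 3), and NUMB, an endocytic adaptor, had the next smallest p with 0.21. Of 6 repressors of CDH1, 1 was higher and 0 lower at that threshold (median 0.30). ZEB2 was at 9.24, 8.45 and 9.36 FPKM in Control and at 10.5, 11.2 and 10.8 FPKM after rhChem157S, with the groups apart (log2 fold change 0.40, SE 0.09, edgeR adjusted p = 0.0948, DESeq2 adjusted p = 0.00741). TWIST2 was the most abundant repressor, at 20.5 ± 2.03 and 23.6 ± 5.17 FPKM (SD, n = 3) with overlapping groups.

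**Figure D5:**
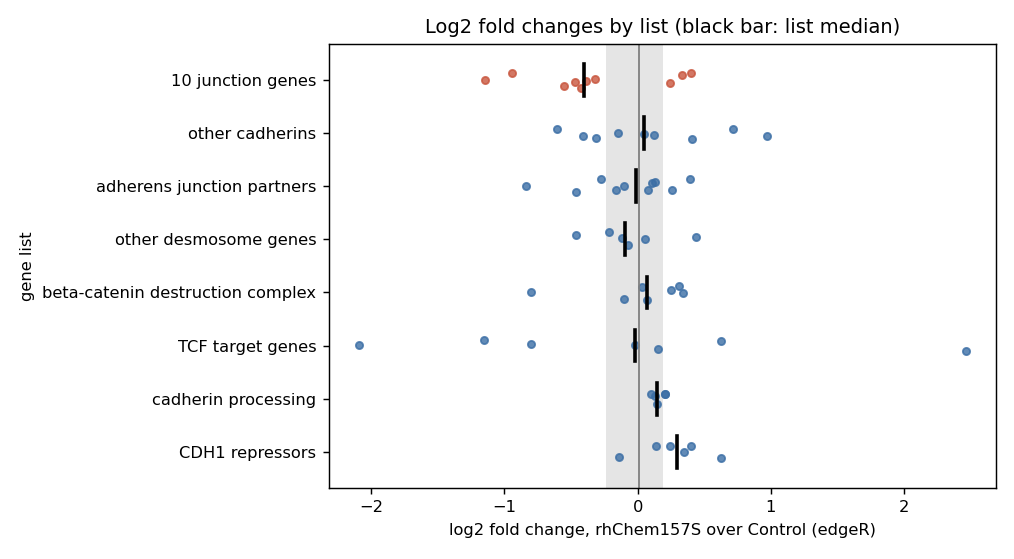
Log2 fold change (rhChem157S over Control, edgeR) of each tested gene of the 10 junction genes and the other lists, with list medians as black bars and a grey line and band for the median and interquartile range of all tested genes. The 10 junction genes have a median of -0.40 beside 0.01 for all genes, and NOTUM lies at -2.09 among the TCF targets.

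By the annotation in the deposited tables, 18 tested genes belonged to GO desmosome (median log2 fold change -0.10), 142 to GO adherens junction (0.01), 22 to GO catenin complex (-0.14) and 66 to KEGG adherens junction (0.10). At an unadjusted edgeR p under 0.05, 3 desmosome genes were higher and 2 lower, 21 and 19 of GO adherens junction, 4 and 5 of the catenin complex, and 12 and 8 of KEGG adherens junction. These are 27.8%, 28.2%, 40.9% and 30.3% of the genes tested, beside 22.8% of all genes. In the same order, the terms hold 5, 8, 6 and 2 of the 10 junction genes. Their counts thus partly repeat those of the 10 genes, with CDH1, CDH2, CDH11, CTNNB1 and JUP among the catenin complex genes at this threshold. CDH1 (347 bases), CDH2 (136), CDH3 (694) and DSG2 (171) share exon bases with an antisense gene and CDH11 (254) with a gene on its own strand, none of which was listed in the tables. The strand setting of the counting was not given in the sources used here, so reads of such neighbours cannot be told apart from those of the gene.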

How the data were processed

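Paired-end RNA-seq libraries of 12Z cells were made without treatment (Control, n = 3) or 48 h after addition of rhChem157S at 10 ng/mL (n = 3). According to the study's methods and the submitters' processing notes, the authors filtered reads with fastp, mapped them to GRCh38.p13 with HISAT2 and obtained gene counts with HTSeq-count, which were deposited without normalisation. The authors also deposited FPKM, and all 76321 values with at least 20 counts matched the count divided by 1 length per gene and by the library total within 1%. Annotation release and strand setting were not given in the sources used here.

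Counts were tested in R 4.3.3 with edgeR 4.0.16 (TMM, filterByExpr with the group, quasi-likelihood test with legacy=TRUE, Benjamini-Hochberg over 13311 genes), and the script was tested on simulated data. The alternatives comprised DESeq2 1.42.0, limma 3.58.1 after log2 transformation of the FPKM with a pseudocount of 1 or 0.1, other scalings and filters, legacy=FALSE, a replicate block and the omission of single libraries. DESeq2 with each library left out was added after the data were seen. Log2 CPM used a prior count of 2. Ratios were compared by exact permutation over libraries.

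The members and lists were chosen with earlier results of these data known. Beside the 10 members, the text names from each list the 2 genes with the smallest p and the gene with the highest mean FPKM, and the 5 profiles nearest to the member with the smallest p. Outside this rule, KRT7, KRT18, KRT19, PECAM1, TEK, PTPRC, AXIN2, PPL and CCND1 were named after their values were seen. Values are described for the lists without set tests.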

Additional observations from a re-analysis of the deposited data

How the results depend on the processing

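With 4 genes called over the whole table by edgeR, scaling by library size gave 5, and RLE factors and a mean CPM of at least 1 gave 4 each. DESeq2 gave 1407, no filter 17, legacy=FALSE 15, limma on log2(FPKM + 1) 179 and limma on log2(FPKM + 0.1) 23, and the cause was not tested. Leaving out 1 library gave 0 to 844 genes, with 844 without rhChem157S replicate 1 and 415 without rhChem157S replicate 3. DESeq2 gave 761, 300 and 585 without Control replicate 1, 2 and 3 and 2704, 658 and 1804 without rhChem157S replicate 1, 2 and 3. Of the 10 junction genes edgeR called 0 with all libraries and 0 to 1 with a library left out, the 1 being CDH11 without rhChem157S replicate 1. DESeq2 called 3, then 1 without each Control library in turn or without rhChem157S replicate 2, 7 without rhChem157S replicate 1 and, without replicate 3 of that group, 4. Of the other lists' genes edgeR called 0 (0 to 3 with a library left out), DESeq2 3, and no filter, legacy=FALSE and both limma fits 1 each. With a library left out DESeq2 called 2, 1 and 2 of them without Control replicate 1, 2 and 3 and 9, 1 and 6 without rhChem157S replicate 1, 2 and 3. PKP2 was at -0.42 (log2) and at 0.024 with edgeR and 0.025 with DESeq2 without rhChem157S replicate 3, and at -1.30 without rhChem157S replicate 1. The other 9 genes kept their sign under all 21 alternatives. CDH11 ranged from -1.15 to -0.72 and was called in 8 of 21. These were DESeq2 with all libraries, DESeq2 with each library left out in turn, and edgeR without rhChem157S replicate 1. The other edgeR fits and both limma fits did not call CDH11.

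The labels give same-numbered libraries no more than a shared number. The correlations of their deviations were 0.241, 0.00147 and 0.247. Those of differently numbered libraries ran from -0.306 to 0.106. Whether Control and treated libraries were paired by number was not tested. The fit with the replicate block called 1 gene over the whole table and 0 of the 10. Exact sign flips of the ratios within the block cannot go below p = 0.25. The 3 ratios kept their sign throughout, from -2.04 to -0.46 for CDH1 to CDH2. With 15 to 65 counts per library, depth limits CDH1 most.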

Other observations

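PPL, which encodes periplakin, a plakin that links desmosomes to keratin, was named after its values were seen. It was at 14.1, 11.7 and 9.75 FPKM in Control and at 14.2, 7.12 and 2.84 FPKM after rhChem157S, with the treated replicate 1 the highest and replicate 3 the lowest of the 6 libraries, the same order at the extremes as in PKP2. Its log2 fold change was -0.46 (edgeR adjusted p = 0.568), and the groups overlapped. CCND1, the cyclin D1 gene and a TCF target, also chosen after its values were seen, was at 0.266, 0.411 and 1.06 FPKM in Control and at 0.271, 1.24 and 6.87 FPKM after rhChem157S. The treated replicate 3 was far above the rest and replicate 1 was within the Control range, with a log2 fold change of 2.47 (SE 1.11, edgeR adjusted p = 0.235).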
